A study of Mus musculus with 15 samples.

Results

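Complement and coagulation factors are the plasma proteins that tag and lyse microbes and that form and dissolve blood clots. Their messenger RNA was followed across 15 tissue samples of C57BL/6J mice through 41 genes, picked by name from a table of 13938 genes, and all 41 were found. The 5 groups of 3 samples were big tumour nodules, small tumour nodules and thymi of model mice 8, 15 and 25, which had hepatocellular carcinoma (HCC) after intraperitoneal diethylnitrosamine (DEN, an alkylating carcinogen) and carbon tetrachloride (CCl4, a hepatotoxin), and livers and thymi of normal mice given corn oil by the same route. Each model mouse gave its own big nodule, small nodule and thymus. No sex or age was given in the labels, and no liver tissue outside the nodules of model mice was measured, so tumour growth and exposure to the 2 chemicals cannot be told apart in what follows. The labels do not say how big a nodule had to be to count as big.

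Levels are in FPKM, which divides the fragments of a gene by its length and by the mapped fragments of the sample. The depth behind each value is unknown, since the files give no counts, and no counting error was computed. Sums of FPKM over all genes ran from 331746 to 338793 in nodules, from 364160 to 377984 in normal livers and from 225669 to 257205 in thymi. The samples carried the defining transcripts of their labelled tissue. The summed FPKM of 8 hepatocyte markers (Alb, Apoa1 and others) was 41966 to 58591 in nodules and 23143 to 25561 in normal livers, against 181 to 225 in model thymi and 178 to 249 in normal thymi, while the 5 thymocyte markers summed to 3.66 to 13.98 in nodules and 2.66 to 3.77 in normal livers, against 1427 to 1657 in model thymi and 1527 to 1653 in normal thymi.

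The liver makes most plasma complement and clotting proteins, and hepatocytes secrete them as inactive precursors. The classical pathway starts when C1q binds antibody, the lectin pathway when mannose-binding lectins or ficolins bind microbial sugars, and the alternative pathway by slow turnover of C3. All 3 routes cleave C3 and C5 and lead to the terminal proteins, which assemble a pore in the target membrane. Clotting begins from tissue factor or from the contact system, passes through thrombin and ends in fibrin, which plasmin dissolves. C1q and properdin are exceptions among these proteins, since macrophages and other myeloid cells, not hepatocytes, are their main source. The 41 genes were therefore split into 4 macrophage-made members (C1qa, C1qb, C1qc and Cfp) and 37 hepatocyte-made members. The 37 are all other members, and they include Fcna, the gene of ficolin-A, which mouse macrophages are also known to make.

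The promoters of 7 genes are printed because they stand beside the results that follow. F11 and Klkb1 are neighbours on chromosome 8 that changed in opposite directions. Fgg, Fga and Fgb are neighbours on chromosome 3 whose ratios moved far less than that of F11 to Klkb1. C9 had the lowest change of the terminal pathway, and C1qb had the highest change of the macrophage-made members. Each sequence holds the 250 bases before the RefSeq start, 5′ to 3′ on the strand of the gene, from build GRCm38.p6. Capitals mark matches, on either strand, to the C/EBP patterns TTNNGNAAT and TTGCGCAA, the HNF4 sites CAAAGGTCA and CAAAGTCCA, or the TATA box TATAAA, all of them motifs of factors that act in hepatocytes or of the basal machinery.
F11, chr8:45262032-45262281, minus strand: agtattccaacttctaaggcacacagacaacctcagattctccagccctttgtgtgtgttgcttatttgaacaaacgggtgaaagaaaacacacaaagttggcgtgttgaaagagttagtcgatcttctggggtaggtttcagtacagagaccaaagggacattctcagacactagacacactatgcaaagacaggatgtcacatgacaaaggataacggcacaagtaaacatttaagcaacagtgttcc
Klkb1, chr8:45294836-45295085, minus strand: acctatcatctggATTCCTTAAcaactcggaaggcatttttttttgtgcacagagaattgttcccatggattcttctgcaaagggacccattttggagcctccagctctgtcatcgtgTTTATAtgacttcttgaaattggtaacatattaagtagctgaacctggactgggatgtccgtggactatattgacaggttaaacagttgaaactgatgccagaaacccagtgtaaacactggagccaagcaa
Fgg, chr3:83007474-83007723, plus strand: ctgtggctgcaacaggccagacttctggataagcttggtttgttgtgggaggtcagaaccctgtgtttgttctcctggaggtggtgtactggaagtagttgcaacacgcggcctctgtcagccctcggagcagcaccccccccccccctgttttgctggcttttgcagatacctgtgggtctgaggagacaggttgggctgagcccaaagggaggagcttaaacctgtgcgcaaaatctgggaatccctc
Fga, chr3:83025903-83026152, plus strand: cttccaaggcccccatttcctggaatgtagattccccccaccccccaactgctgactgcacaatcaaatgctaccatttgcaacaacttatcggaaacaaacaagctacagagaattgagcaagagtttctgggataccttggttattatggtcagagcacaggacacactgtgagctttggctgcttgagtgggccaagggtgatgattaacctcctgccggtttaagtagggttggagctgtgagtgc
Fgb, chr3:83049864-83050113, minus strand: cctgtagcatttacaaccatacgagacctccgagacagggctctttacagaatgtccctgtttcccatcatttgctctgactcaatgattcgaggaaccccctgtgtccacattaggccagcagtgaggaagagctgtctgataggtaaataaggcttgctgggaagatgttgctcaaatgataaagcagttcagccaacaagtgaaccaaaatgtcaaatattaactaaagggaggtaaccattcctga
C9, chr15:6445096-6445345, plus strand: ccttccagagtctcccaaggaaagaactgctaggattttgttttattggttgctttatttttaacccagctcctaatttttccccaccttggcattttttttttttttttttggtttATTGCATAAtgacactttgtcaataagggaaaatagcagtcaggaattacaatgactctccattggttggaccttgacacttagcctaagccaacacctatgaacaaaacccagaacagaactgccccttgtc
C1qb, chr4:136886201-136886450, minus strand: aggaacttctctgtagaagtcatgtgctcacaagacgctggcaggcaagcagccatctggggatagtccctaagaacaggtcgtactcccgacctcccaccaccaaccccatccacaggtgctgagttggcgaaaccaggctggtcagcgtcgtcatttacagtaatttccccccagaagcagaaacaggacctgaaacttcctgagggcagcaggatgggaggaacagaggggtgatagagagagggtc

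Of the 41 members, 32 had a promoter in the RefSeq table. TTNNGNAAT was found before 9 of these 32 genes (28.1%), against 10.2% of all 32851 promoters. Member shares count genes with a match in any of their promoters, whereas the other shares count single promoters, so they are unlike measures. TATAAA was found before 3 (9.38%), against 12.4%, CAAAGGTCA before 1 (3.12%), against 0.426%, and CAAAGTCCA and TTGCGCAA before 0, against 0.384% and 0.164%. Among the printed sequences, Klkb1 held a C/EBP match 237 to 229 bases and a TATAAA match 132 to 127 bases before its start, and C9 a C/EBP match 133 to 125 bases before its start. F11, Fgg, Fga, Fgb and C1qb held none of these letters in this window. These matches describe the letters, and no binding was measured.

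Nodules were compared with normal livers to ask how the tumours expressed these genes. Some members were higher in nodules and others were lower. The higher members were led by F11 (3.38-fold), Kng1 (3.28-fold), the 3 C1q chains (2.07- to 2.46-fold) and Cfi (1.97-fold). The lower members were led by Mbl1 (3.21-fold), C9 (3.00-fold), C8b (2.99-fold) and C6 (2.66-fold). These folds are ratios of mean FPKM over 3 mice and 3 livers.

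By limma on log2(FPKM + 1), with each mouse entered as the mean of its big and small nodule (3 mice against 3 livers) and an adjusted p under 0.05 as the threshold, 15 of 41 members were higher in nodules (36.6%), where 26.6% of all 10278 genes tested were, and 7 were lower (17.1%), where 13.6% were. Of the 15 higher members 4 were macrophage-made and 11 hepatocyte-made, and all 7 lower members were hepatocyte-made. In the hepatocyte-made class 11 of 37 higher (29.7%) and 7 of 37 lower (18.9%) were near those background shares. The median change was 1.10 over the 4 macrophage-made members and 0.16 over the 37 hepatocyte-made members, beside 0.11 over all genes. All 41 members passed the filter, under which a gene had to reach 1 FPKM in 3 or more of the values compared. Complement had 7 higher and 6 lower of 22 members, and coagulation 8 higher and 1 lower of 19.

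How the samples are scaled moved the median of all genes from 0.11 as deposited to 0.24 with equal sums, and to -0.05 both with median-of-ratios scaling and with quantile normalization. Less that median, the macrophage-made class had a median change of 0.99, 1.01, 0.96 and 1.16 under these 4 scalings in the same order, and the hepatocyte-made class 0.04, 0.07, 0.01 and 0.47. In all 16 settings tried, leave-one-out fits included, 10 members were called higher (C1qa, C1qb, C1qc, Cfp, Cfi, F11, Kng1, F5, Fga and Fgb) and 6 lower (Mbl1, Mbl2, C6, C8b, C9 and Klkb1). The calls of C2, Cfb, F2, F12 and Hrg were lost with median-of-ratios scaling, where their adjusted p was 0.0569 to 0.0978; with that scaling 10 members were higher and 11 lower, and 1931 genes higher and 2227 lower in place of 2730 and 1393. With quantile normalization 23 members were higher and 7 lower, and 2017 genes higher and 2123 lower. The 3 model mice are separate animals per the labels. The titles of 2 of the 3 normal livers name the same mouse, while the table columns carry 3 different numbers, so these livers may share an animal, and the spread between them may then be in part technical and the p-values too small.

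**Figure D1:**
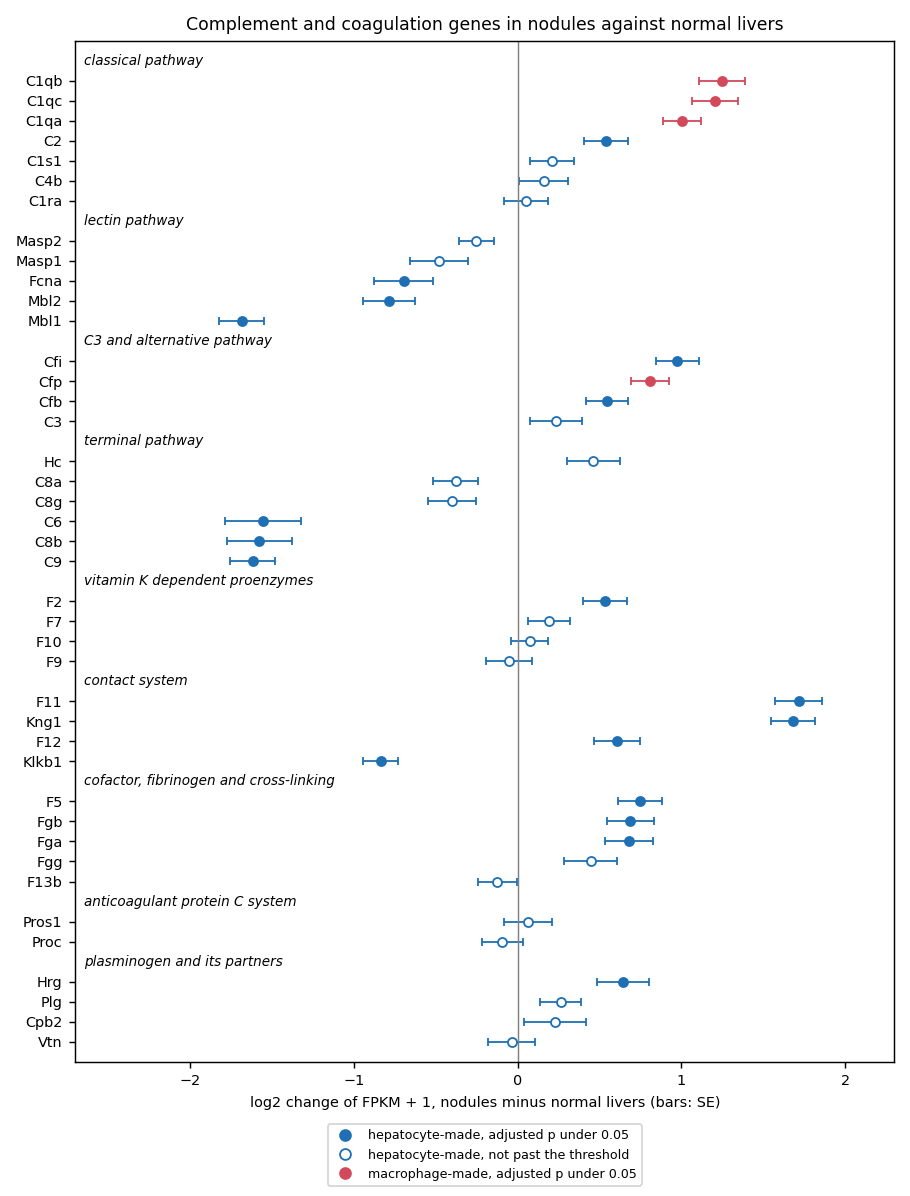
Log2 change of FPKM + 1 of the 41 members, nodules minus normal livers, grouped by role; points are limma estimates over 3 mice and 3 livers, bars are SE, and filled points have an adjusted p under 0.05. All 4 macrophage-made members (red) lie right of 0, all 5 lectin pathway members lie left of it, and F11 (1.72) and Klkb1 (-0.84) stand on opposite sides within the contact system.

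In the classical pathway 4 of 7 members were higher and 0 lower, where 26.6% of all genes were higher and 13.6% lower. C1qa, C1qb and C1qc encode the 3 chains of C1q, the recognition molecule. C1qa had 52.1, 46.8 and 43.8 FPKM in the big nodules and 41.9, 56.4 and 67.6 in the small nodules of mice 8, 15 and 25, against 23.7, 24.9 and 26.0 in normal livers. C1qb had 54.8, 55.2 and 42.7 FPKM in big nodules and 55.2, 75.5 and 69.3 in small nodules, against 24.6, 26.7 and 20.4 in normal livers. C1qc had 26.4, 22.9 and 18.7 FPKM in big nodules and 22.3, 31.1 and 29.3 in small nodules, against 11.2, 8.35 and 11.2 in normal livers. Every nodule exceeded every liver for the 3 chains. By limma with Benjamini-Hochberg adjustment the changes were 1.00 (SE 0.115, adjusted p = 0.000351) for C1qa, 1.25 (SE 0.14, adjusted p = 0.000319) for C1qb and 1.21 (SE 0.142, adjusted p = 0.0004) for C1qc. The 3 genes are neighbours on chromosome 4, and C1qb was 0.975 to 1.34 times C1qa in nodules and 0.786 to 1.07 times in livers.

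C2, the serine protease of the C3 convertase, had 33.4, 21.2 and 32.1 FPKM in big nodules and 32.5, 30.6 and 34.0 in small nodules, against 19.9, 20.5 and 21.1 in normal livers. Its groups did not overlap, though the big nodule of mouse 15 lay close to the livers, and the change was 0.54 (adjusted p = 0.0137, limma); without liver 2 the adjusted p was 0.0502, and with big nodules alone it was 0.0954. The proteases that C1q activates were not past the threshold: C1ra averaged 92.9 ± 3.08 FPKM in nodules and 89.4 ± 12.4 in normal livers, and C1s1 217 ± 28 and 186 ± 9.53 (SD, n = 3 mice and 3 livers each). C4b, the substrate of C1s, averaged 225 ± 24.9 FPKM in nodules and 202 ± 29.4 in normal livers. C1ra, C1s1 and C4b have near-identical copies in the mouse (C1rb, C1s2 and C4a), so how reads were divided among copies makes their levels uncertain.

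In the lectin pathway 0 of 5 members were higher and 3 were lower, where 26.6% of all genes were higher and 13.6% lower. The change was negative for all 5 under all 4 scalings. The median of all genes was 0.11 as deposited, 0.24 with equal sums, and -0.05 with median-of-ratios scaling and with quantile normalization. Mbl1 and Mbl2 encode the mannose-binding lectins. Mbl1 had 25.9, 36.8 and 40.8 FPKM in big nodules and 44.1, 52.3 and 37.8 in small nodules, against 132, 116 and 134 in livers. Mbl2 had 232, 218 and 179 FPKM in big nodules and 274, 294 and 186 in small nodules, against 397, 374 and 406 in normal livers. For both lectins every nodule was below every liver, and the changes were -1.69 (SE 0.137, adjusted p = 6.8e-05) for Mbl1 and -0.79 (SE 0.158, adjusted p = 0.00526) for Mbl2 by limma.

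Fcna, the gene of ficolin-A, another sugar-binding starter, had 17.0, 17.7 and 16.2 FPKM in big nodules and 25.6, 14.0 and 23.6 in small nodules, against 30.5, 24.9 and 38.1 in normal livers. The small nodule of mouse 8 lay above the lowest liver, so the groups overlapped; the change was -0.70 (adjusted p = 0.0162, limma), and the adjusted p was 0.0551 without mouse 15 and 0.116 with small nodules alone. Mouse macrophages are also known to make ficolin-A. The change of Fcna was opposite in sign to that of the C1q chains, and which cells gave its RNA here was not tested. The proteases of the pathway did not pass: Masp1 averaged 14.6 ± 3.54 FPKM in nodules and 20.2 ± 2.08 in normal livers (adjusted p = 0.062, limma), and Masp2 59.3 ± 1.74 and 70.8 ± 2.28 (adjusted p = 0.0953). For Masp2 all 6 nodules lay below all 3 livers. Both were called lower with median-of-ratios scaling, at adjusted p values of 0.0132 and 0.0107, and Masp1 also without mouse 15 (0.0108) and with big nodules alone (0.0401).

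In the group of C3 and the alternative pathway 3 of 4 members were higher, where 26.6% of all genes were. C3, the protein at which all routes meet, did not pass: it had 1462, 1126 and 1035 FPKM in big nodules and 1436, 1410 and 1120 in small nodules, against 1165, 1108 and 938 in normal livers (change 0.23, adjusted p = 0.286, limma). Cfi, whose product factor I cuts C3b and C4b and so restrains the pathway, had 802, 735 and 719 FPKM in big nodules and 709, 566 and 698 in small nodules, against 348, 390 and 333 in normal livers. The lowest nodule was well above the highest liver, and the change was 0.97 (SE 0.13, adjusted p = 0.000733, limma). Cfb, the protease subunit of the alternative convertase, averaged 449 ± 13.4 FPKM in nodules and 308 ± 37.2 in normal livers (change 0.55, adjusted p = 0.0123). Cfp, the gene of properdin, which stabilises that convertase and is X-linked and myeloid, had 14.8, 15.1 and 13.7 FPKM in big nodules and 13.7, 18.0 and 18.4 in small nodules, against 8.28, 8.91 and 8.09 in normal livers, with no overlap and a change of 0.81 (SE 0.114, adjusted p = 0.000953).

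The terminal pathway gave 0 higher and 3 lower members of 6, where 26.6% of all genes were higher and 13.6% lower. Its members differed widely among themselves. C9, whose product lines the membrane pore, had 81.1, 78.4 and 82.7 FPKM in big nodules and 139, 152 and 121 in small nodules, against 323, 373 and 283 in normal livers. C8b, the beta chain of C8, had 49.0, 45.0 and 36.6 FPKM in big nodules and 58.2, 80.5 and 51.7 in small nodules, against 162, 196 and 122 in normal livers. C6, which binds C5b next, had 15.4, 23.8 and 20.0 FPKM in big nodules and 39.5, 74.4 and 33.9 in small nodules, against 98.8, 105 and 71.6 in normal livers. For C9 and C8b no nodule reached the liver range, while for C6 the small nodule of mouse 15 did. The changes were -1.62 (SE 0.137, adjusted p = 8.1e-05) for C9, -1.58 (SE 0.199, adjusted p = 0.000551) for C8b and -1.56 (SE 0.231, adjusted p = 0.00121) for C6 by limma.

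The remaining terminal members were not past the threshold. Hc, the gene of C5, averaged 236 ± 27.8 FPKM in nodules and 171 ± 28.9 in normal livers (change 0.46, adjusted p = 0.0548, limma). C8a, the neighbour and partner chain of C8b on chromosome 4, averaged 97.8 ± 2.85 FPKM in nodules and 127 ± 18.6 in normal livers, and C8g, the third chain, 96.2 ± 4.14 and 128 ± 22.8. The 3 chains of the C8 protein thus changed unequally: C8b was 0.405 to 0.75 times C8a in nodules and 1.14 to 1.36 times in livers. Scaling a sample by 1 factor leaves such ratios unchanged, while quantile normalization can alter them. Likewise C9 was 0.285 to 0.671 times Hc in nodules and 1.80 to 2.03 times in livers. Hc was called higher with equal sums (adjusted p = 0.0145), with quantile normalization, with small nodules alone and without liver 3. C8a was called lower with median-of-ratios scaling, with big nodules alone and without liver 5, and C8g with median-of-ratios scaling, with small nodules alone and without liver 3.

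**Figure D2:**
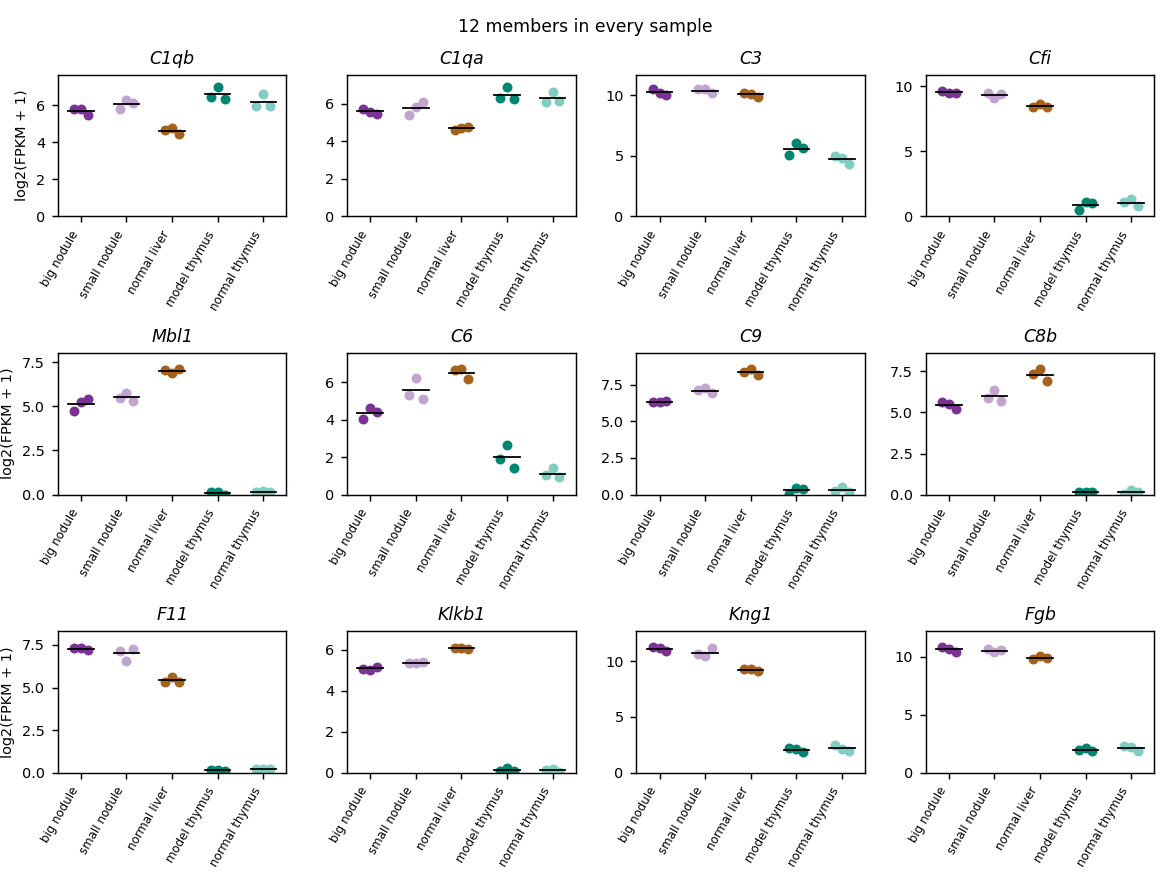
Level of 12 members as log2(FPKM + 1) in each of the 15 samples, 3 samples per group from big nodules at the left to normal thymi at the right; lines are group means. C1qa and C1qb stand higher in nodules than in normal livers and highest in thymi, whereas Mbl1, C6, C9, C8b and Klkb1 stand lower in nodules than in normal livers.

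Among the 4 vitamin K dependent proenzymes 1 was higher, where 26.6% of all genes were. F2, which encodes prothrombin, had 508, 478 and 558 FPKM in big nodules and 409, 364 and 396 in small nodules, against 309, 276 and 344 in normal livers. All nodules were above all livers (change 0.53, SE 0.133, adjusted p = 0.0142, limma), but with small nodules alone the adjusted p was 0.101. F7, the partner of tissue factor, averaged 71.6 ± 3.38 FPKM in nodules and 62.4 ± 7.68 in normal livers, F9, the factor lacking in haemophilia B, 97.6 ± 11.1 and 101 ± 10.5, and F10, which makes thrombin from prothrombin, 218 ± 7.64 and 207 ± 13. None of these 3 passed, with adjusted p values from 0.266 to 0.792, and their sign depended on the scaling.

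The contact system gave the widest spread of any group, with 3 members higher and 1 lower. Of all genes 26.6% were higher and 13.6% lower. F11, the proenzyme of factor XIa, had 157, 161 and 143 FPKM in big nodules and 142, 92.5 and 155 in small nodules, against 39.4, 48.2 and 38.3 in normal livers. Kng1, which encodes the kininogen that yields bradykinin, had 2514, 2292 and 1924 FPKM in big nodules and 1576, 1371 and 2257 in small nodules, against 648, 627 and 547 in normal livers. Every nodule was above every liver for both genes, and the changes were 1.72 (SE 0.143, adjusted p = 7.6e-05) for F11 and 1.68 (SE 0.137, adjusted p = 7e-05) for Kng1 by limma. Klkb1, the gene of plasma prekallikrein, had 32.7, 31.3 and 34.8 FPKM in big nodules and 39.0, 39.9 and 41.3 in small nodules, against 67.2, 65.4 and 64.2 in normal livers. No nodule reached the livers, and the change was -0.84 (SE 0.106, adjusted p = 0.000569). F12, the Hageman factor that starts the contact reaction, averaged 240 ± 3.47 FPKM in nodules and 158 ± 24.0 in normal livers (change 0.61, adjusted p = 0.0108).

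F11 and Klkb1 are related serine protease genes that lie next to each other on the minus strand of chromosome 8 (mm10), at chr8:45241174-45262031 and chr8:45266689-45294859. Within a sample, F11 was 4.79, 5.15 and 4.12 times Klkb1 in big nodules and 3.63, 2.32 and 3.75 times in small nodules, against 0.587, 0.737 and 0.597 times in normal livers. The order of the pair was thus opposite in every nodule and every liver. The next gene, Cyp4v3 (a fatty acid hydroxylase, named after its values were seen), was 46.4 to 75.7 FPKM in nodules and 130 to 136 in normal livers, a change of -1.21 in the direction of Klkb1. On chromosome 16 the neighbours of Kng1 gave a different picture. Hrg, a member, was higher as given below, and the nonmembers Ahsg and Kng2 (named after their values were seen) were also higher, Ahsg at 6701 to 7489 FPKM in nodules against 1999.9 to 2316 in normal livers and Kng2 at 280 to 396 against 106 to 113. Kng1 and Kng2 are close copies, so how reads were divided between them is uncertain. All 4 annotated transcripts of Kng1 were higher in every nodule than in every liver.

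**Figure D3:**
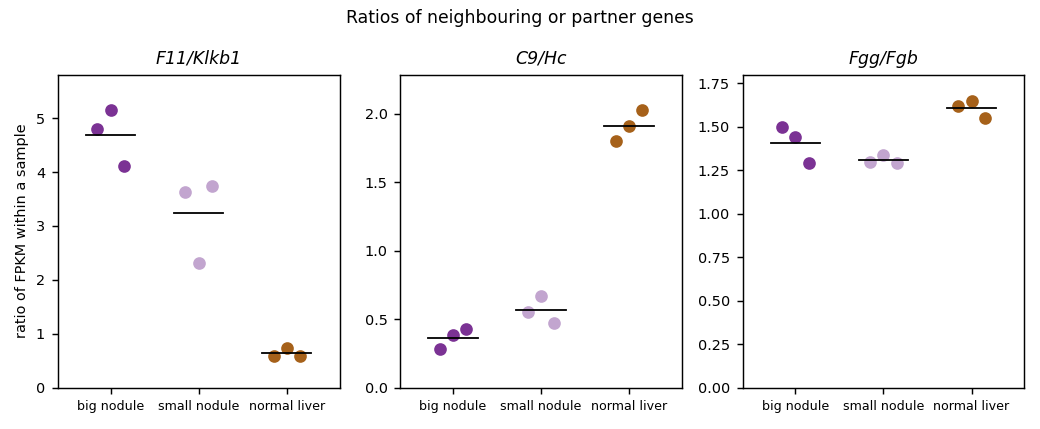
Ratios of FPKM within each sample, with 3 big nodules, 3 small nodules and 3 normal livers per panel and lines at the group means. F11 exceeded Klkb1 in all 6 nodules (2.32 to 5.15) and was below it in all 3 livers (0.587 to 0.737), C9/Hc was lower in nodules, and Fgg/Fgb differed by far less.

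Of the cofactor, fibrinogen and cross-linking genes 3 of 5 were higher, where 26.6% of all genes were. F5, the cofactor of factor Xa, averaged 127 ± 7.76 FPKM in nodules and 74.9 ± 9.32 in normal livers, with no overlap (change 0.75, SE 0.133, adjusted p = 0.00301, limma). Fga had 2712, 2314 and 1752 FPKM in big nodules and 2065, 1731 and 2060 in small nodules, against 1302, 1409 and 1196 in normal livers. Fgb had 1871, 1673 and 1327 FPKM in big nodules and 1612, 1324 and 1541 in small nodules, against 890, 1067 and 930 in normal livers. Fgg had 2808, 2416 and 1711 FPKM in big nodules and 2103, 1774 and 1986 in small nodules, against 1446, 1760 and 1441 in normal livers. These genes encode the 3 chains of fibrinogen; the first 2 had no overlap between groups and changes of 0.68 (adjusted p = 0.00746) and 0.69 (adjusted p = 0.00645), whereas the lowest nodule for Fgg lay within the livers and its change of 0.45 did not pass (adjusted p = 0.0581). Fgg was called higher with equal sums (0.0159), with quantile normalization (0.00436) and without mouse 25 (0.0439).

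Among the fibrinogen chains the ratio of Fga to Fgb overlapped between groups, while that of Fgg to Fgb was slightly lower in every nodule than in every liver. Fga was 1.28 to 1.45 times Fgb in nodules and 1.29 to 1.46 times in livers, and Fgg was 1.29 to 1.5 times Fgb in nodules and 1.55 to 1.65 times in livers. Fgg has 2 transcripts in the deposited table: Fgg-201 was 1362 to 1918 FPKM in nodules and 905 to 1064 in normal livers, with no overlap, and Fgg-202 was 723 to 1508 in nodules and 779 to 1080 in normal livers, with overlap. F13b, the carrier subunit of the fibrin cross-linking enzyme, averaged 88.9 ± 7.31 FPKM in nodules and 96.6 ± 4.95 in normal livers and did not pass (adjusted p = 0.439, limma).

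Neither gene of the protein C anticoagulant system passed. Proc, the precursor of that protease, averaged 298 ± 18.9 FPKM in nodules and 318 ± 26.2 in normal livers, and Pros1, its cofactor protein S, 22.3 ± 3.22 and 21.1 ± 2.3 (adjusted p = 0.581 and 0.771, limma). Of plasminogen and its partners 1 of 4 was higher, where 26.6% of all genes were. Hrg, the histidine-rich glycoprotein that binds plasminogen and heparin, had 888, 832 and 734 FPKM in big nodules and 713, 569 and 1057 in small nodules, against 518, 572 and 426 in normal livers. The small nodule of mouse 15 lay just under the highest liver, the change was 0.64 (adjusted p = 0.0146), and with small nodules alone the adjusted p was 0.0979. Plg, the gene of plasminogen, averaged 974 ± 69.7 FPKM in nodules and 810 ± 36.2 in normal livers; all nodules exceeded all livers, yet the change of 0.26 did not pass (adjusted p = 0.132). Plg was called higher with equal sums (0.0307) and with quantile normalization (0.000971). Cpb2, whose product protects fibrin from plasmin, and Vtn, the adhesive protein vitronectin, averaged 322 ± 55.6 and 638 ± 62.5 FPKM in nodules, against 274 ± 52.4 and 654 ± 72.5 in normal livers, with adjusted p values of 0.375 and 0.862. The sign of Vtn depended on the scaling, and with quantile normalization it was called higher (0.50, adjusted p = 0.0153).

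Taking the samples one by one, all 6 nodules lay above all 3 livers for 15 members and below for 6, and the groups overlapped for 20. Over all genes tested, 26.6% lay above and 12.8% below without overlap. The 15 are not quite those of the test: Plg did not pass it, and Hrg passed although its groups overlapped. Among the lower members Masp2 did not pass, and C6 and Fcna passed with overlap. The 41 members together held 4.42 to 5.67% of all FPKM in nodules and 3.13 to 3.34% in normal livers. Alb, the gene of serum albumin, was also higher in nodules (change 0.96, adjusted p = 0.00205, limma). Among 8 hepatocyte markers 6 were called higher and 0 lower, where 26.6% and 13.6% of all genes were. Relative to Alb, Kng1 was 0.0667 to 0.109 in nodules and 0.0427 to 0.0612 in livers, whereas Fgb was 0.0498 to 0.0792 in nodules and 0.0727 to 0.0907 in livers.

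Markers of macrophages moved with the macrophage-made members. Of 10 macrophage markers 9 were tested, of which 7 were higher in nodules and 1 lower, where 26.6% and 13.6% of all genes were. The summed FPKM of the 10 was 150 to 216 in nodules and 71.0 to 105 in normal livers. Cd68, a lysosomal protein of macrophages, changed by 1.48 (adjusted p = 0.0027, limma), Adgre1, which encodes F4/80, by 0.91 (adjusted p = 0.00161) and Csf1r, the receptor for their growth factor, by 0.52 (adjusted p = 0.039), while Cd163, a haemoglobin scavenger receptor, changed by -1.41 (adjusted p = 0.00117). The level of C1qa relative to these markers depended on the marker. It was 5.85 to 8.84 times Adgre1 in nodules and 6.13 to 8.86 times in livers, 2.55 to 6.36 times Cd68 in nodules and 4.97 to 11.5 times in livers, and 3.02 to 4.87 times Csf1r in nodules and 2.22 to 3.7 times in livers, with overlap for all 3. The part of macrophage number in the rise of C1q was not tested, and in tissue samples more cells of a type and more RNA per cell cannot be told apart. The 6 Kupffer cell markers, those of resident liver macrophages, had 1 higher and 0 lower, with sums of 105 to 189 FPKM in nodules and 89.3 to 124 in normal livers. Cd5l was the higher one (change 1.06, adjusted p = 0.000526), and Clec4f was 32.6 to 55.2 FPKM in nodules and 39.5 to 49.6 in normal livers.

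Markers of other cell types also differed, in a comparison where 26.6% of all genes were higher and 13.6% lower. For monocytes 1 marker was tested and it was higher (sum 7.57 to 12.4 FPKM in nodules and 2.65 to 5.06 in normal livers), for neutrophils 2 were tested and both were higher (3.28 to 13.97 against 0.846 to 1.38, with Ly6g at 0 throughout), and for endothelium 4 of 6 were higher (70.8 to 102 against 48.0 to 55.1). Of the 6 stellate cell and fibroblast markers 4 were higher and 2 lower (43.0 to 76.9 against 77.8 to 89.9), the 1 platelet marker tested was higher (1.70 to 3.53 against 0.460 to 1.29), the 1 thymic epithelial marker tested did not pass (1.5 to 3.47 against 2.05 to 2.29), and 1 adipocyte marker was higher and 1 lower (12.3 to 26.5 against 6.01 to 11.8). The 1 thymocyte marker tested did not pass. What these cells contributed to the changes of members was not tested.

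A wider list held complement regulators and receptors and clotting and fibrinolysis genes, 65 in all. Of these 46 were tested, with 19 higher (41.3%) and 6 lower (13%). Over all genes tested 26.6% were higher and 13.6% lower, so the lower share was near the background. The 6 higher genes with the smallest adjusted p were Anxa2, a plasminogen-binding membrane protein (change 3.12), Fgl2, a fibrinogen-like prothrombinase (3.43), F2r, the thrombin receptor PAR1 (1.38), Pzp, a protease-trapping macroglobulin (1.64), Cd93, a receptor first described for C1q (1.25), and Clu, clusterin, an inhibitor of the terminal complex (1.09), with adjusted p values from 4.42e-06 to 0.000243 by limma. Anxa2 was 48.9 to 60.03 FPKM in nodules and 4.48 to 6.02 in normal livers, and Fgl2 11.1 to 31.7 and 0.681 to 1.32. The 6 lower genes were Serpine2, a thrombin inhibitor (-1.97), Colec10, a collectin of the lectin pathway (-1.14), C1qbp, a mitochondrial protein that binds C1q (-0.60), Cd59b, an inhibitor of the membrane pore (-0.81), Tfpi2, a Kunitz-type protease inhibitor (-0.73), and Cfd, the protease that activates factor B (-1.42), with adjusted p values from 4.81e-05 to 0.0384. Colec10 was 1.80 to 4.68 FPKM in nodules and 7.09 to 9.02 in normal livers. Cfd was low and overlapped, at 0 to 10.9 FPKM in nodules and 2.34 to 7.69 in normal livers. Its level in the big nodule of mouse 25 was above every liver.

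Of 10 transcription factors known to drive hepatocyte plasma protein genes, 2 were higher, 1 was lower and 7 did not pass. Over all genes tested 26.6% were higher and 13.6% lower. Foxa3 (1.05, adjusted p = 0.0105) and Nr5a2 (0.38, adjusted p = 0.0437) were higher and Nr1h4, the bile acid receptor FXR, was lower (-1.08, adjusted p = 0.0262, limma). Hnf4a, among those that did not pass, was 115 to 138 FPKM in nodules and 115 to 127 in normal livers. Of 5 genes of acute phase signalling, the interleukin-6 response of the liver, Socs3 (1.05) and Il6ra (0.35) were higher. Of 3 factors of macrophages, Spi1 (0.96) and Irf8 (0.88) were higher.

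Big nodules were compared with small nodules of the same mice. No member passed: limma called 0 of 41 members and 0 of 10415 genes (0.0%), whether or not the mouse entered as a block. At an unadjusted p under 0.05 the fit without the block gave 5 members and 417 genes. The changes, SE and p-values that follow are from that fit, which leaves out the pairing. C6 (-1.21, SE 0.304), C9 (-0.75, SE 0.141), C8a (-0.38) and C8b (-0.52) were lower in big nodules, F2 (0.40) was higher, and the adjusted p was 0.949 for each of the 5. The next smallest p upward was that of Kng1, whose change was 0.39. The values of C9 in the 3 mice, given above, lay at 78.4 to 82.7 FPKM in big nodules and 121 to 152 in small nodules and did not overlap. Big nodules lay above small nodules without overlap for 4 members and below for 7, beside 3.16% and 6.0% of all genes. For C9 both sizes lay below normal livers, with small nodules in between. C1qa (-0.19), C1qb (-0.38), C1qc (-0.27) and Cfp (-0.18) did not pass either.

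Within mice, 13 of 41 members were lower in the big nodule of all 3 mice and 5 were higher, beside 20.8% and 9.9% of all genes. The lower ones included C6, C8a, C8b and C9 of the terminal pathway, Mbl2, Masp1 and Masp2 of the lectin pathway, C1ra, C1qb, F9, Klkb1, Pros1 and Vtn. The higher ones were F2, F12, Plg, Cfi and C8g. By gene values the C8 chains thus split again, with C8a and C8b among the lower and C8g among the higher genes. For C8g this depended on the gene value, which was 0.838 to 1.39 times its transcript sum in nodules and livers. Its transcript C8g-202 had 72.2, 69.9 and 80.2 FPKM in big nodules of mice 8, 15 and 25. In small nodules it had 70.5, 65.8 and 100, so mouse 25 went the other way. Mouse 25 differed from the other 2 for F11, Kng1, Fga, Fgb and Fgg, where its big nodule was the lower of the pair.

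**Figure D4:**
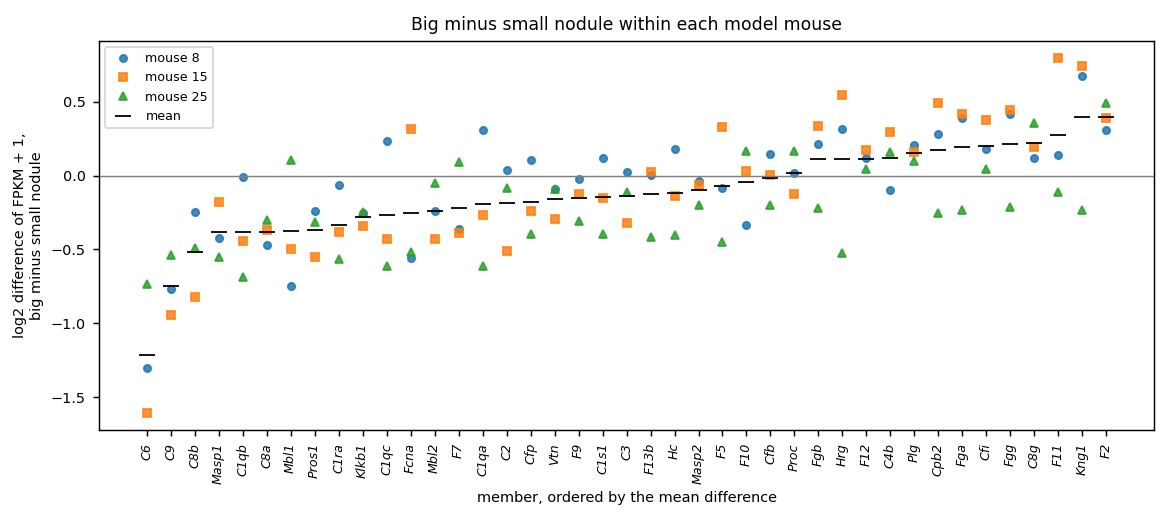
Log2 difference of FPKM + 1 between the big and the small nodule of each model mouse (3 symbols) for all 41 members, ordered by the mean (black dash). C6 and C9 lie below 0 in all 3 mice and F2 above it, and no member passed the test across all genes.

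Model thymi were compared with normal thymi to describe the same genes in an organ away from the tumour. Here 21 of 41 members passed the filter, 17 hepatocyte-made and 4 macrophage-made, and the other 20 did not. Limma called 0 of the 21 and 0 of 11332 genes (0.0%), with 4 members and 1159 genes at an unadjusted p under 0.05. The 4 were C3, C6, C1s1 and Cfb. C3 had 31.8, 65.8 and 47.5 FPKM in model thymi of mice 8, 15 and 25, against 29.6, 27.2 and 19.3 in normal thymi (change 0.87, SE 0.265, adjusted p = 0.481). C6 had 2.71, 5.2 and 1.71 FPKM in model thymi, against 1.03, 1.68 and 0.898 in normal thymi (change 0.87, adjusted p = 0.481). For C3, C6 and Cfb every model thymus exceeded every normal thymus, 3 of the 21 members where 12.3% of all genes did, and 0 lay below, where 6.53% did.

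The smallest p downward were those of Fgg (change -0.26) and Hrg (-0.18), both with overlapping groups. C1qa had 79.3, 118 and 75.2 FPKM in model thymi, against 67.0, 99.0 and 71.6 in normal thymi. In the same order C1qb had 86.7, 123 and 79.5 against 60.8, 97.5 and 61.9. The values of C1qc were 45.2, 64.7 and 43.3 against 33.1, 52.8 and 35.8, and those of Cfp 29.6, 38.4 and 25.2 against 22.5, 36.2 and 21.4. For all 4 genes the groups overlapped, and the median change of the macrophage-made members was 0.28, beside -0.01 for the hepatocyte-made members tested and 0.05 for all genes. The thymus of mouse 15 was the highest model thymus for C1qa, C1qb, C1qc, Cfp, C3, C6, C1ra, C1s1 and C4b, and normal thymus 3 the highest normal thymus for the C1q chains and Cfp. Macrophage markers summed to 222, 317 and 235 FPKM in model thymi, against 165, 259 and 159 in normal thymi, and were thus highest in the same 2 samples. Stellate cell and fibroblast markers summed to 24.8, 50.2 and 35.8 FPKM in model thymi, against 20.3, 26.4 and 19.7 in normal thymi. Their part in the levels of the members was not tested. Of the wider list 35 genes were tested and 0 called.

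Normal livers were compared with normal thymi to set the 2 classes against each other. All 37 hepatocyte-made members were higher in liver, where 22.8% of 11763 genes were, and all 4 macrophage-made members were lower in liver, where 61.8% of genes were, so for these 4 the background was itself high. Members under 1 FPKM in thymus passed the filter on low values through liver alone and had to differ, so their count is a description. The median change was 6.75 for hepatocyte-made and -1.58 for macrophage-made members, beside -0.86 for all genes. The median of all genes depended on the scaling, at -1.34 with equal sums, -0.01 with median-of-ratios scaling and -0.20 with quantile normalization, and the macrophage-made members were called lower under each. Over all genes 2687 were higher and 7271 lower in liver as deposited, 4530 and 4503 with median-of-ratios scaling and 4020 and 5141 with quantile normalization. Less that median, their change was -0.72 as deposited, -0.87 with equal sums, -0.62 with median-of-ratios scaling and -1.30 with quantile normalization.

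C1qa averaged 24.8 ± 1.16 FPKM in normal livers and 79.2 ± 17.3 in normal thymi, and C1qb 23.9 ± 3.22 and 73.4 ± 20.9 (SD, n = 3 each). In the same way C1qc averaged 10.3 ± 1.65 and 40.6 ± 10.7, and Cfp 8.43 ± 0.426 and 26.7 ± 8.22. No liver reached a thymus for any of them. Without overlap, 37 members lay above thymus in liver and 4 below, beside 23.3% and 62.0% of all genes. For the macrophage-made members the 6 nodules lay between, except that small nodules reached the range of the normal thymi for C1qa and C1qb. Of the hepatocyte-made members, Plg, Fgg and C9 had the largest changes (8.16, 8.05 and 8.03) and Fcna (1.88) and Pros1 (2.17) the smallest.

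The thymus level of hepatocyte-made members had a median of 0.292% of the liver level, from 0.0% for Masp1, which was listed at 0 in all 3 normal thymi, to 25.5% for Fcna. Alb was at 0.992%, and 29 of the 37 members were at or below that. The 8 above it were Fcna (25.5%), Pros1 (18.5%), C2 (5.77%), C1s1 (3.48%), C1ra (3.31%), C3 (2.37%), C6 (1.31%) and Cfb (1.26%). Of these 8, 7 are complement genes, where 18 of all 37 hepatocyte-made members are. The 7 include Fcna, which macrophages are also known to make. C3, at 19.3 to 29.6 FPKM, was the most abundant hepatocyte-made member in normal thymus. Whether thymus cells or carried-over RNA gave the low values of the other members was not tested.

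**Figure D5:**
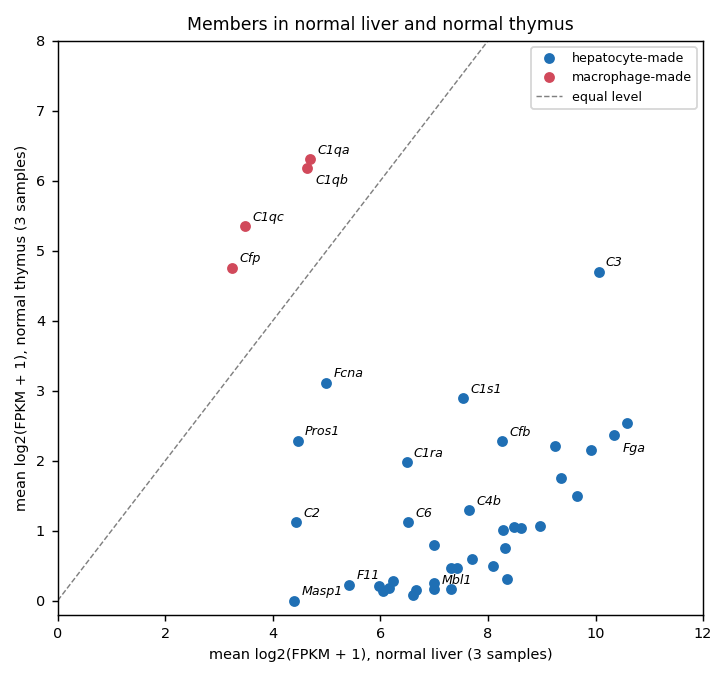
Mean log2(FPKM + 1) of each member in normal liver (horizontal) and normal thymus (vertical), 3 samples each, with a dashed line of equal level. The 4 macrophage-made members (red) lie above the line and the 37 hepatocyte-made members (blue) below it, with C3 the highest of the blue points in thymus.

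The change in nodules was set against the change in thymus by testing their difference across 12570 genes. Of the 41 members 11 had a higher change in nodules, where 14.4% of genes did, and 5 a lower one, where 7.68% did. F11 (difference 1.81, SE 0.167, adjusted p = 1.1e-05, limma) and Kng1 (1.84, SE 0.218, adjusted p = 7.87e-05) were the largest upward, followed by Cfi (1.13), C1qc (0.87), Fgb (0.84), Hrg (0.83), C1qa (0.82), Fga (0.74), F5 (0.74), Hc (0.63) and F2 (0.61). C6 (-2.42, SE 0.406, adjusted p = 0.00103) was the largest downward, since it had a change of -1.56 in nodules and 0.87, which was not called, in model thymi. Mbl1 (-1.62), C9 (-1.59), C8b (-1.56) and Klkb1 (-0.84) were the others. C1qb (0.85, adjusted p = 0.0524) and Cfp (0.58, adjusted p = 0.153) did not pass. For most hepatocyte-made members the thymus change was measured near 0 FPKM, and their difference is in the main the nodule change. Such calls do not show that the organs responded differently. With median-of-ratios scaling 5 members were higher and 10 lower, and 1557 genes higher and 1548 lower in place of 1806 and 965. The calls of Mbl1, C6, C8b, F11, Kng1 and Fgb held in all 19 other settings. The call of Fga was lost in 14 of the 19, and those of C1qa, C1qc, Hc and F2 in 10 each, with adjusted p values up to 0.115 for Fga, 0.149 for C1qa, 0.189 for C1qc, 0.212 for Hc and 0.137 for F2 (limma). Those of Cfi, C9, Klkb1 and F5 were lost with a pseudocount of 0.1 alone, and that of Hrg in 2 settings.

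Of the 41 members 17 had more than 1 transcript in the deposited transcript table. Gene values were not sums of these: in nodules and livers the gene value was 0.434 to 1.39 times the sum, and how gene values were made is not given in the sources used here. With the sum in place of the gene value, all 41 members kept their direction and side of the threshold in nodules against livers.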

How the data were processed

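Poly(A) RNA of livers, nodules and thymi was sequenced with a stranded kit per the labels. The authors deposited 2 tables, of genes and of transcripts, whose unit is FPKM per the file headers. The tools were HISAT2 2.1.0, StringTie 1.3.3, cutadapt and FastQC 0.11.7, with mm10, per the submitters' processing notes; annotation and strand setting are not given in those sources. Gene positions, on mm10, come from the gene table.

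Groups came from sample titles. Liver columns 2, 3 and 5 meet titles that name mice 2, 3 and 3, so for columns 3 and 5 the group is known and the mouse is not, and 2 livers may come from 1 mouse. Big and small nodules with the same number come from 1 mouse per the titles, and their deviations from the group means correlated at 0.307, 0.252 and 0.325 across genes, against -0.249 to -0.0365 between mice. The pairing changed no call.

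Values were tested as log2(FPKM + 1), which understates the change of low genes, using lmFit and eBayes (trend on) of limma 3.58.1 under R 4.3.3. Tests were two-sided and adjusted by Benjamini-Hochberg over all genes tested, with a threshold of 0.05. A gene was kept where 3 or more of the values compared reached 1 FPKM. Nodules were averaged per mouse. The difference between organs was an interaction term over livers, nodule means and thymi, without a link between the nodules and thymus of a mouse. The procedure was tested on simulated data. The 41 members, their roles and classes, and the lists of the wider pathway, of factors and of markers were chosen with earlier results of these data known. The rule for names took every member for nodules against livers, and elsewhere members called (or the 2 smallest p each way) with C1qa, C1qb, C1qc and Cfp, and up to 6 called genes each way from the wider pathway list. Other genes named are examples from the marker and factor lists, or the text says that they were picked afterwards. Some genes of the factor lists are not reported here. Promoters are from RefSeq, build GRCm38.p6. Alternatives were other pseudocounts, filters and scalings, the sum of transcripts, 1 nodule size alone, a replicate block and leaving out each replicate.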

Additional observations from a re-analysis of the deposited data

Results flagged for a closer look

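The change in nodules against livers was set against that in model against normal thymi. By a test of the difference (limma, adjusted p under 0.05, log2 scale), 16 members were called. Of the 41 members 11 had a higher change in nodules, where 14.4% of genes did, and 5 a lower one, where 7.68% did. Mbl1, Hc, C8b, C9, F2, F11, Klkb1 and F5 were near or below 1 FPKM in thymi and were not tested there alone. Their difference is in the main the nodule change, so their calls do not show that the organs responded differently. The difference, nodule change minus thymus change, was 1.84 for Kng1, 1.81 for F11, 1.13 for Cfi, 0.87 for C1qc, 0.84 for Fgb, 0.83 for Hrg, 0.82 for C1qa, 0.74 for Fga, 0.74 for F5, 0.63 for Hc and 0.61 for F2. It was -0.84 for Klkb1, -1.56 for C8b, -1.59 for C9, -1.62 for Mbl1 and -2.42 for C6. C6 had opposite signs in the 2 organs, at 15.4 to 74.4 FPKM in nodules and 71.6 to 105 in normal livers, against 1.71 to 5.2 in model thymi and 0.898 to 1.68 in normal thymi. Its thymus change alone did not pass (0.87, adjusted p = 0.481, limma). Hc, at 0.189 to 0.546 FPKM in thymi, was called here although its change in nodules alone was not. Its call was lost in 10 of 19 other settings. So were those of C1qa, C1qc and F2 in 10 each and that of Fga in 14. The cause of these differences was not tested.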

How the results depend on the processing

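In nodules against livers, the calls of 10 higher and 6 lower members held in all 16 settings; the other 6 called members lost their call in at least 1, and the text names where. With 3 samples per group and no counts, the counting error of low values, such as those of most members in thymus, is unknown. Left-out replicates that leave 2 samples in a group assume that these vary like the rest.

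With median-of-ratios scaling, nodules against livers had 11 lower members, 2227 lower genes, and medians of -0.04 (hepatocyte-made) and 0.91 (macrophage-made); the sign turned for the uncalled C1ra (-0.15), C4b (-0.04), F7 (-0.01), F10 (-0.13) and Pros1 (-0.13). Livers against thymi then had 4530 higher and 4503 lower genes and medians of 7.30 and -0.63, and the difference between organs 5 higher and 10 lower members, 1548 lower genes and a hepatocyte-made median of -0.12. With quantile normalization there were 23 higher members, 2123 lower genes and a hepatocyte-made median of 0.42 in nodules, with F9 at 0.11, F13b at 0.02, Proc at 0.19 and Vtn at 0.50; the macrophage-made median in livers against thymi was -1.50 and the hepatocyte-made median of the difference between organs 0.28. With equal sums the nodule medians were 0.31 and 1.25, F9 was at 0.10, F13b at 0.02, Proc at 0.05 and Vtn at 0.11, and the medians of livers against thymi were 6.40 and -2.20. The cause was not tested.

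Big nodules alone gave a macrophage-made median of 0.98, with C1ra and Pros1 at -0.12 each, and small nodules alone 1.22, with F9 at 0.02 and Vtn at 0.04. The stricter filter left 1355 higher genes in nodules, since fewer genes were tested, and a hepatocyte-made median of 0.31 in thymi; without Fcna that thymus median was 0.13. A pseudocount of 0.1 gave a hepatocyte-made median of 8.27 in livers against thymi, and 3 lower members and a hepatocyte-made median of -0.14 in the difference between organs.

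Leaving out 1 replicate in turn gave -0.02 to 0.16 for C1ra, -0.11 to 0.04 for F9, -0.01 to 0.18 for Pros1 and -0.11 to 0.05 for Vtn in nodules against livers. In big against small nodules it gave 0 to 1 higher genes, a macrophage-made median of -0.48 (without mouse 8) to -0.08, and -0.44 to 0.02 for C1qa. In thymi it gave 0 to 6 higher and 0 to 3 lower genes (the highest without normal thymus 2), a hepatocyte-made median of -0.08 to 0.15, and -0.01 (without mouse 15) to 0.36 for C1qa. In livers against thymi the macrophage-made median was -1.70 to -1.39. In the difference between organs 6 to 14 members were higher, with 6 without mouse 25 in the nodules, or mouse 8 or 25 in the thymi, and 7 without mouse 8 in the nodules, liver 2, liver 3 or normal thymus 3. With the mouse as a replicate block, big against small nodules had 0 higher and 0 lower members and 0 genes called, and no other call was touched.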
